A study of Mus musculus with 8 samples.

Results

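A set of 10 genes of the epidermal growth factor receptor (EGFR) and hepatocyte growth factor (HGF) systems was followed in mouse liver. The genes were taken by gene symbol from the 33467 genes of the deposited FPKM table. They are the ligand genes Areg, Ereg, Hbegf and Tgfa, the receptor genes Egfr, Erbb2 and Erbb3, and Hgf, Hgfac and Met. Each of the 10 symbols had 1 row, and all 10 passed the filter on low counts that left 19535 genes to test. The livers came from 8 wild-type C57BL/6J mice. The 4 DDC mice ate a diet with 1% 3,5-diethoxycarbonyl-1,4-dihydrocollidine (DDC), a compound used to injure the bile ducts and bring on biliary fibrosis, for 4 weeks, and the 4 control mice ate a standard diet for as long. The labels give no age or sex. Whole liver RNA was sequenced, so fewer cells of a type and less RNA per cell cannot be told apart.

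Amphiregulin (Areg), epiregulin (Ereg), heparin-binding EGF-like growth factor (Hbegf) and transforming growth factor alpha (Tgfa) are made as membrane-bound precursors, cut free by metalloproteases, and bind EGFR. EGFR then pairs with itself or with ERBB2, which has no known ligand of its own, or ERBB3, which binds neuregulins and has little kinase activity. HGF is secreted as an inactive single chain, mostly by stellate and other stromal cells in liver, is cut by serine proteases such as the HGF activator encoded by Hgfac, and then binds MET on hepatocytes and biliary cells. Both receptor systems are known for their part in hepatocyte proliferation after loss of liver tissue.

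The start regions of both ligand and receptor pairs at the centre of the results, Tgfa with Egfr and Hgf with Met, are shown with that of Areg, which carried the most kinds of searched motif. They run from 250 bases before to 50 bases after the start annotated by RefSeq on GRCm38.p6, read 5′ to 3′ on the gene's strand. Start regions of 7 of the 10 members were searched. All 5 genes lie on the plus strand, at chr5:91139349-91139648 (Areg), chr6:86194972-86195271 (Tgfa), chr11:16751953-16752252 (Egfr), chr5:16553245-16553544 (Hgf) and chr6:17463707-17464006 (Met). Capitals mark matches to the letters of 6 motifs, searched on both strands and spelled out with their counts after the sequences.
Areg: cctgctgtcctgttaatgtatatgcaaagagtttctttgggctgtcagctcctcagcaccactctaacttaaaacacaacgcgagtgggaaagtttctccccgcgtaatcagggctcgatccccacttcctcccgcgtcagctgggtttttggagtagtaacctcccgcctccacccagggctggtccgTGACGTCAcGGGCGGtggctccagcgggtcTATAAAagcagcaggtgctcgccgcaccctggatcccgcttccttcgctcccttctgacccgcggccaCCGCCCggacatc
Tgfa: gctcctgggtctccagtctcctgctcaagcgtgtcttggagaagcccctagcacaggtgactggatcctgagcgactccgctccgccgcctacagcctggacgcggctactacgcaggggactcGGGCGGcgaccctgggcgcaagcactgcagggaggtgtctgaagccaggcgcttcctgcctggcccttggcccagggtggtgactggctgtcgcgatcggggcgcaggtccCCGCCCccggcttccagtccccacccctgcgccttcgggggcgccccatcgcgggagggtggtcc
Egfr: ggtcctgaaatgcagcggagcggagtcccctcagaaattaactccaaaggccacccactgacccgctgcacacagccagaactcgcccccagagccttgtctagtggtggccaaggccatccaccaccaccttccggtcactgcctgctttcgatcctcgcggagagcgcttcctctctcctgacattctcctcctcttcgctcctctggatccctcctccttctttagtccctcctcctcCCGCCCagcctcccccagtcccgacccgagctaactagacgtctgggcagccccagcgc
Hgf: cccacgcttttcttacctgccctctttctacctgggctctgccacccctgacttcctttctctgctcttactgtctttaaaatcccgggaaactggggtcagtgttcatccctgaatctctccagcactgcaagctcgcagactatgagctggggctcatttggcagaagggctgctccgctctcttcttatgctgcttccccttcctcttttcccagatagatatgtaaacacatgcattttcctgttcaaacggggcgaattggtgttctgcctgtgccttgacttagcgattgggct
Met: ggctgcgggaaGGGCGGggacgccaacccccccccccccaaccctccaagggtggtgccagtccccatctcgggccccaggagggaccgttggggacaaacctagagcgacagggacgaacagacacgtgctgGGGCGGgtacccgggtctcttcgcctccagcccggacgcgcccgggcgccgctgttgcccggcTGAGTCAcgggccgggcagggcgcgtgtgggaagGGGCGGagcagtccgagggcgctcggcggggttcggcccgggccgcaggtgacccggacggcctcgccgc

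Areg held 1 CRE, the letters TGACGTCA, starting 61 bases before the annotated start. It also held 1 TATA box, spelled TATAAA, at 31 bases before the start, and 2 GC boxes, spelled GGGCGG. Of 32851 RefSeq windows of this length, 1.79% held the CRE letters, 13.6% the TATA box and 35.7% the GC box. Met held the AP-1 motif, searched as TGANTCA, at 54 bases before its RefSeq start, which 7.81% of the windows held, and 3 GC boxes. The deposited table places the start of Met 157 bases from the RefSeq start, still inside the window. None of the matches in the members overlapped another. Tgfa held 2 GC boxes and Egfr 1. Hgf and Hgfac held none of the 6 motifs, and Erbb2 held the TEAD motif, searched as GGAATG and found in 14.7% of windows. The HNF4 motif, searched as CAAAGTCCA and found in 0.475% of windows, was in none of the 7. A match is a match of letters and was not tested as a binding site. Ereg and Erbb3 were not matched to a start region, and none was searched for Hbegf.

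The libraries held 61179103 to 81664057 counts. Levels are given as CPM, a gene's counts scaled to a common library total, with totals scaled by the trimmed mean of M values (TMM). Fold changes are DDC over control from edgeR's quasi-likelihood test, with Benjamini-Hochberg adjustment over all tested genes and a threshold of 0.05. The scaling matters here: TMM factors were 1.2116 to 1.2687 in DDC libraries and 0.7918 to 0.8155 in control libraries. With library totals alone, the log2 fold change of all tested genes had a median of 0.70, against 0.07 with TMM, so that upward differences are larger and downward ones smaller on that scale. Control 2 stood apart in biliary epithelial genes. The summed level of 9 cholangiocyte markers was 747 to 1148 CPM in DDC livers. Among controls it was 218 CPM in Control 2, the remaining 3 lying at 85.8 to 92.2 CPM. Spp1 made up most of the sum in DDC livers, at 606 to 922 CPM, and was at 48.2 to 52.6 CPM in controls. The distance of Control 2 from the DDC livers in this sum thus rests largely on that gene. Controls 1 and 3 stood apart from Controls 2 and 4, in immediate-early genes and in others. Serpina1e, a hepatocyte marker gene, was at 134 to 321 CPM in DDC livers. It was at 507 and 457 CPM in Controls 1 and 3, and at 6511 and 8974 CPM in Controls 2 and 4. Egr1, an immediate-early transcription factor gene, was at 48.5 to 64.2 CPM in DDC livers, at 202 and 187 CPM in Controls 1 and 3, and at 16.3 and 22.2 CPM in Controls 2 and 4. Calls of the genes named that are lost, or fold changes that move by more than 1.5 times, without these control libraries are given both ways.

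In DDC livers the ligand genes Hbegf, Tgfa and Hgf were higher than in control livers, and the receptor genes Egfr, Erbb3 and Met and the protease gene Hgfac were lower. The largest changes were those of Egfr, at 5.54-fold lower, and Erbb3, at 3.42-fold lower. Areg, Ereg and Erbb2 did not pass the test. Of the 10 members, 3 were called higher, where 30.2% of all tested genes were, and 4 were called lower, where 26.6% were, so that 7 of 10 were called beside a background of 56.8%. The groups did not overlap for 8 of the 10, beside 52.6% of all tested genes. The log2 fold changes of the 10 ran from -2.47 to 1.54, with none between -1.15 and 0.35. Their median was 0.51, beside 0.07 for all genes, and does not describe such a split set.

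**Figure D1:**
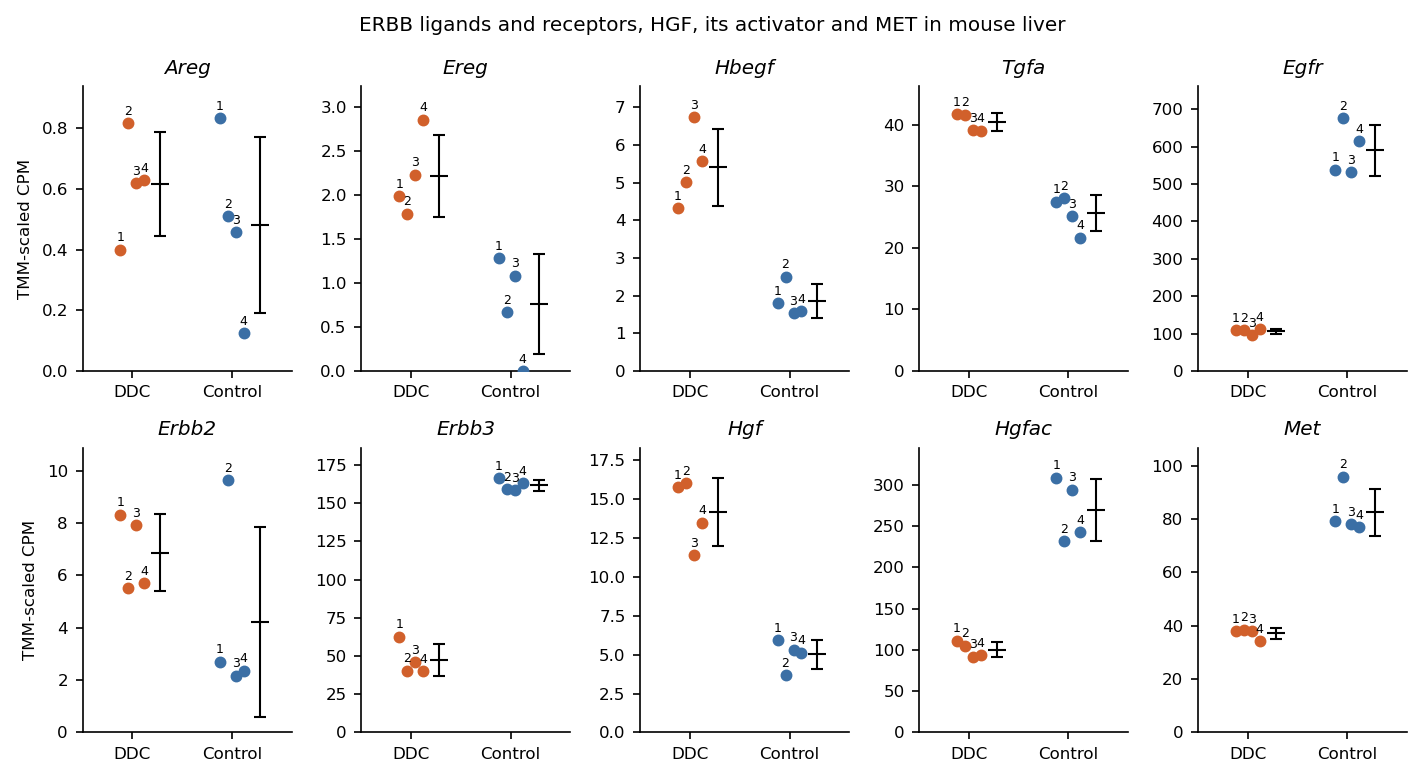
Level of each of the 10 genes in every library, in TMM-scaled CPM, with DDC livers left of control livers, replicate numbers above the points and bars at the group mean ± SD (n = 4 each). Hbegf, Tgfa, Hgf and Ereg lie higher in all 4 DDC livers, Egfr, Erbb3, Hgfac and Met lie lower, and Areg and Erbb2 overlap, with Control 2 the highest library for Erbb2.

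Tgfa was the most abundant of the 4 ligand genes and the least spread relative to its mean. It stood at 41.7, 41.7, 39.2 and 39.1 CPM in DDC livers and at 27.5, 28.1, 25.2 and 21.6 CPM in control livers. The lowest DDC liver was above the highest control, and the level was 1.58-fold higher (log2 fold change 0.66, SE 0.08, edgeR adjusted p = 0.000121). Of its exonic bases, 118 overlap Gm43917, an annotated transcript on the other strand. Tgfa lies on chromosome 6 at 86195223 to 86275719 (GRCm38).

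Hbegf, whose product also binds ERBB4, had the larger change of the ligand genes that were called. Its levels were 4.32, 5.02, 6.74 and 5.58 CPM in DDC livers and 1.80, 2.51, 1.54 and 1.59 CPM in control livers. The groups were apart, and Control 2 was the highest control. The level was 2.91-fold higher in DDC livers (log2 fold change 1.54, SE 0.22, edgeR adjusted p = 0.000265). It lies on chromosome 18 at 36504927 to 36515805 (GRCm38).

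Ereg and Areg are neighbours on chromosome 5, in a row with the ligand genes Epgn and Btc that spans 375.5 kb. Ereg runs from 91074622 to 91093646 and Areg from 91139599 to 91148432 (GRCm38), 46.0 kb apart. Ereg had 154, 151, 231 and 263 counts in DDC livers and 66, 34, 57 and 0 counts in control livers, or 1.99, 1.79, 2.23 and 2.86 CPM in DDC livers against 1.28, 0.666, 1.084 and 0 CPM in control livers. All 4 DDC livers were above all 4 controls, but the test across all genes did not call it (log2 fold change 1.54, SE 0.81, edgeR adjusted p = 0.132). This turned on Control 4: it held 0 counts, which allows a level of up to 0.062 CPM at 3 counts by counting error alone, and without it Ereg was called higher (log2 fold change 1.12, adjusted p = 0.0177). Because 1 control is at 0, the fitted fold depends on the fit's prior count. Of its exonic bases, 141 overlap the antisense transcript Gm19610.

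Areg was scarce in every liver, with 31, 69, 64 and 58 counts in DDC livers and 43, 26, 24 and 6 counts in control livers. Its levels of 0.400, 0.817, 0.618 and 0.630 CPM in DDC livers lay within the span of 0.834, 0.510, 0.457 and 0.124 CPM in control livers, where Control 1 was the highest of all 8 libraries. No difference was detectable at this depth (log2 fold change 0.35, SE 0.53, edgeR adjusted p = 0.588), and its sign rested on Controls 2 and 4: with both left out the log2 fold change was -0.076 (adjusted p = 0.902).

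Btc, the betacellulin gene at the far end of the same row, had a larger fold change than the called member ligands. It stood at 9.25, 7.87, 7.73 and 7.50 CPM in DDC livers and at 0.796, 1.63, 1.598 and 0.971 CPM in control livers, 6.47-fold higher (log2 fold change 2.69, SE 0.25, edgeR adjusted p = 1.35e-05). Epgn, between 0 and 0.174 CPM in DDC livers and between 0 and 0.145 CPM in control livers, did not pass the filter on low counts. Of the row of 4 ligand genes, Btc was thus the one that was called.

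Egfr, the receptor of all 4 ligands, was the member with the largest change. Its levels were 109, 109, 96.6 and 112 CPM in DDC livers and 538, 677, 532 and 615 CPM in control livers. No DDC liver came near the lowest control. Egfr was 5.54-fold lower (log2 fold change -2.47, SE 0.10, edgeR adjusted p = 8.44e-08), and 3.60-fold lower with library totals alone. The gene lies on chromosome 11 at 16752203 to 16918158 (GRCm38).

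Erbb3, whose product binds neuregulins and pairs with EGFR, was at 62.7, 40.4, 46.2 and 40.0 CPM in DDC livers and at 166, 159, 159 and 163 CPM in control livers. The controls were close together, and DDC 1 was the highest of the DDC livers. Erbb3 was 3.42-fold lower (log2 fold change -1.77, SE 0.14, edgeR adjusted p = 3.89e-06), and 2.22-fold lower with library totals alone. It lies on chromosome 10 at 128567523 to 128589652 (GRCm38).

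Erbb2, which encodes the partner receptor without a ligand, was the one receptor gene of the 3 that was not called lower. It lies on chromosome 11 at 98412470 to 98437716 (GRCm38). It stood at 8.31, 5.50, 7.92 and 5.70 CPM in DDC livers and at 2.70, 9.62, 2.17 and 2.35 CPM in control livers. Controls 1, 3 and 4 lay below every DDC liver, and Control 2 lay above all of them, so that the groups overlap and it was not called (log2 fold change 0.70, SE 0.48, edgeR adjusted p = 0.24). Without Control 2 it was called higher (log2 fold change 1.502, edgeR adjusted p = 0.000359). Control 2 is also the control with the high cholangiocyte sum: Krt19, a biliary keratin gene, was at 26.7 to 46.5 CPM in DDC livers, 60.7 CPM in Control 2 and 5.37 to 13.3 CPM in Controls 1, 3 and 4. Muc1, an epithelial mucin gene, was at 7.78 to 13.6 CPM in DDC livers, 53.7 CPM in Control 2 and 1.41 to 2.46 CPM in Controls 1, 3 and 4. Spp1, another of the 9 markers, was at 606 to 922 CPM in DDC livers and 48.2 to 52.6 CPM in controls, with Control 2 inside the range of the rest. Of the 9 markers 7 were called higher and 0 lower in DDC livers, with none at 0 in any library. Their part in the Erbb2 values was not tested.

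**Figure D2:**
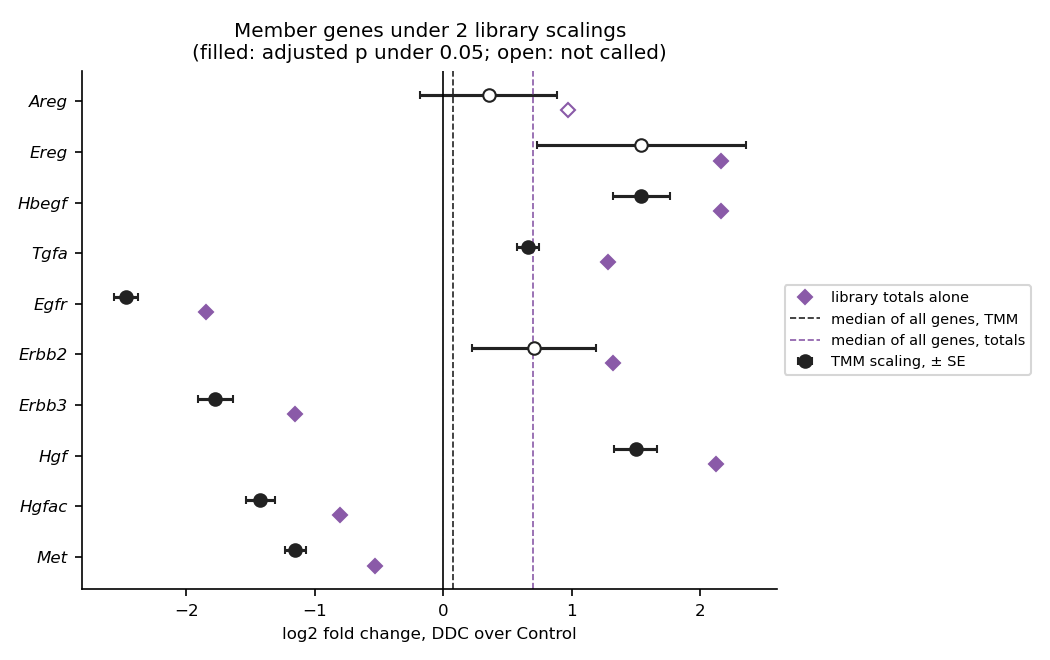
Log2 fold change of each of the 10 genes, DDC over control, with TMM scaling (circles, with bars of 1 standard error) and with library totals alone (diamonds). Filled symbols passed the threshold, and dashed lines mark the median of all tested genes on each scale. The 4 genes called lower lie below 0 on both scales, and Areg, Ereg and Erbb2 have the widest bars.

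Hgf is expressed in liver mainly by cells outside the hepatocyte lineage. It stood at 15.7, 16.003, 11.4 and 13.5 CPM in DDC livers and at 5.94, 3.66, 5.31 and 5.12 CPM in control livers. The groups were apart, with Control 2 the lowest library. Hgf was 2.83-fold higher (log2 fold change 1.498, SE 0.17, edgeR adjusted p = 5.18e-05). It lies on chromosome 5 at 16553495 to 16620152 (GRCm38), and 484 of its exonic bases, or 6.74%, are shared on the same strand with the transcript Gm43489, so that a part of its reads could belong to either. The summed level of 10 stellate cell and fibroblast markers was 1084 to 1211 CPM in DDC livers and 423 to 582 CPM in control livers, with 5 of the 10 called higher and 1 lower. Lrat, a marker of quiescent stellate cells, was at 20.3 to 31.1 CPM in DDC livers and 16.8 to 23.2 CPM in control livers, with overlapping groups. The part of such cells in the Hgf difference was not tested. Of the further marker lists, 3 of 7 endothelial, 2 of 5 mesothelial, 4 of 5 neutrophil and 2 of 6 tested lymphoid markers were called higher and none lower. Of the B and plasma cell markers 3 of 4 were called lower. Beside these marker counts, 30.2% of all tested genes were called higher and 26.6% lower.

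Hgfac moved the other way. Its levels were 111, 105, 91.8 and 93.6 CPM in DDC livers and 309, 232, 294 and 242 CPM in control livers, and the groups were apart. It was 2.68-fold lower (log2 fold change -1.42, SE 0.11, edgeR adjusted p = 3.96e-06), and 1.74-fold lower with library totals alone. The gene lies on chromosome 5 at 35041509 to 35048424 (GRCm38). Hgfac is made chiefly by hepatocytes. All 9 hepatocyte markers were called lower with TMM, and their summed level was 56107 to 71204 CPM in DDC livers and 144334 to 162860 CPM in control livers. Alb made up most of that sum, with means of 49998 CPM in DDC livers and 116259 CPM in control livers. On the deposited FPKM scale the marker with the smallest fold difference was Cps1, at 605 ± 25.1 in DDC livers and 647 ± 66.9 in control livers. How much of the fall of Hgfac, Egfr, Erbb3 and Met goes with these markers was not tested.

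Met, which encodes the receptor of HGF, was at 37.9, 38.5, 37.9 and 34.1 CPM in DDC livers and at 79.2, 95.8, 78.1 and 76.9 CPM in control livers. DDC 4 was the lowest and Control 2 the highest library of their groups. Met was 2.22-fold lower (log2 fold change -1.15, SE 0.08, edgeR adjusted p = 2.27e-06), and 1.44-fold lower with library totals alone. It lies on chromosome 6 at 17463800 to 17573980 (GRCm38).

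Levels were compared between genes on the deposited FPKM scale, which divides by gene length. Hgfac had the highest FPKM of the 10 in both groups, at 35.1 ± 2.55 in DDC livers and 61.5 ± 8.76 in control livers (SD, n = 4 each), and Egfr was next, at 11.2 ± 0.649 in DDC livers and 40.6 ± 4.88 in control livers. In DDC livers the order then ran Erbb3, Tgfa, Met, Hgf, Erbb2, Hbegf, Ereg, Areg. The spans of Egfr and Erbb3, of Erbb2 and Hbegf, and of Ereg and Areg overlapped in DDC livers, so those neighbours cannot be placed. In control livers the order after Egfr ran Erbb3, Met, Tgfa, Erbb2, Hgf, Areg, Hbegf, Ereg, and the spans from Erbb2 to Hbegf overlapped pair by pair. Tgfa was above Met in every DDC liver and below it in every control liver. Tgfa had 7.43 ± 0.117 FPKM in DDC livers and 3.07 ± 0.387 FPKM in control livers.

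The 4 ligand genes summed to 10.01 ± 0.334 FPKM in DDC livers and 3.82 ± 0.682 FPKM in control livers (SD, n = 4 each), and the 3 receptor genes to 22.2 ± 2.29 FPKM in DDC livers and 62.2 ± 5.28 FPKM in control livers. Tgfa made up 74.3% ± 3.61 of the ligand sum in DDC livers and 81.2% ± 5.43 in control livers, and Hbegf made up 13.3% ± 2.37 in DDC livers and 7.80% ± 1.46 in control livers. Of the receptor sum, Egfr made up 51.0% ± 5.59 in DDC livers and 65.2% ± 2.34 in control livers, Erbb3 made up 41.9% ± 4.77 in DDC livers and 33.9% ± 2.93 in control livers, and Erbb2 made up 7.04% ± 1.16 in DDC livers and 0.969% ± 0.752 in control livers. The FPKM values stand on library totals, so that the sums are read on that scale, and the shares do not depend on it.

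**Figure D3:**
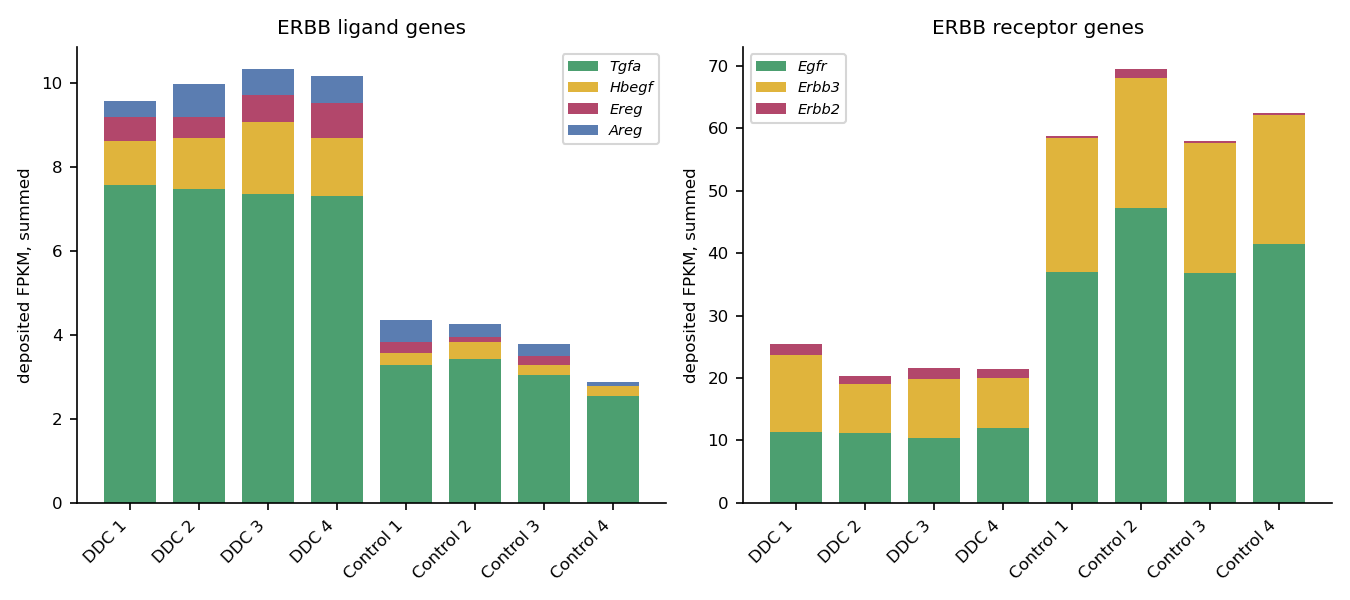
FPKM of the 4 ligand genes and of the 3 receptor genes stacked in every library, DDC livers left of control livers. The ligand stacks reach 9.56 to 10.3 FPKM in DDC livers and 2.87 to 4.35 FPKM in control livers, and the receptor stacks 20.3 to 25.5 FPKM in DDC livers and 57.9 to 69.5 FPKM in control livers.

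Ratios of 2 genes within a library do not depend on library scaling. Hgf to Met was 0.443, 0.443, 0.321 and 0.422 in DDC livers and 0.0796, 0.0406, 0.0723 and 0.0708 in control livers. The ratio was 6.33-fold higher, with the groups apart. Erbb2 to Egfr was 0.165, 0.110, 0.178 and 0.111 in DDC livers and 0.0109, 0.0308, 0.00875 and 0.00819 in control livers, 11.04-fold higher. Here Control 2 lay above the other controls but below every DDC liver.

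Met to Egfr was 0.515 ± 0.0529 in DDC livers and 0.206 ± 0.0152 in control livers, 2.49-fold higher (SD, n = 4 each), Egfr being lower by more than Met. Erbb3 to Egfr was 0.838 ± 0.190 in DDC livers and 0.521 ± 0.0629 in control livers, 1.59-fold higher. Each of the 4 ratios was tested by an exact permutation test, two-sided, over all 70 ways to place 4 libraries in each group, and each gave p = 0.0286, the smallest that this design allows, and 0.0286 after Benjamini-Hochberg adjustment over the 4. For Hgf to Met this p was fixed beforehand, as Hgf lay above all controls and Met below all controls in every DDC liver. That test adds nothing to the calls of Hgf and Met. Erbb3 to Egfr was the least secure, as leaving out Control 2 or Control 4 gave p = 0.0571 by exact permutation.

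**Figure D4:**
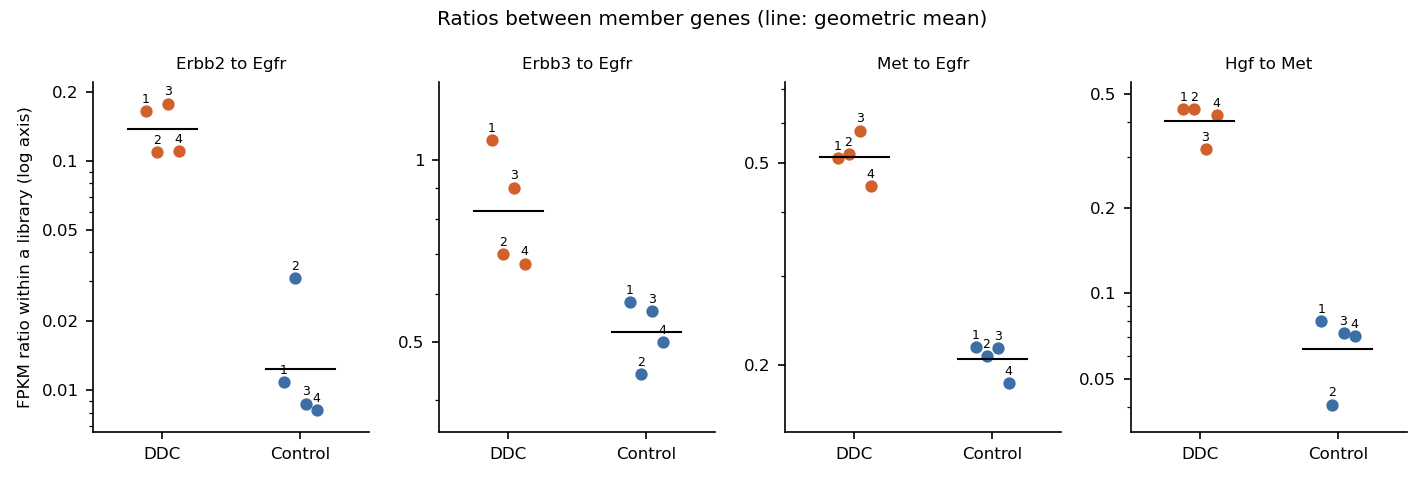
FPKM ratio of 2 genes in every library, on log axes, with DDC livers left of control livers and a line at the geometric mean. The groups are apart in all 4 ratios, and Control 2 is the highest control for Erbb2 to Egfr and the lowest for Hgf to Met.

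Among the other ERBB ligands and the receptor Erbb4, 5 of 8 could be tested, with 2 higher, 2 lower and 1 not called. The counts of this and the following lists stand beside 30.2% of all tested genes called higher and 26.6% called lower. Nrg1, the ligand of ERBB3 and ERBB4 known as neuregulin 1, was at 12.5, 13.7, 11.2 and 13.5 CPM in DDC livers and at 1.28, 1.20, 1.14 and 0.950 CPM in control livers, 11.1-fold higher (log2 fold change 3.47, SE 0.14, edgeR adjusted p = 1.03e-07). Nrg4, a neuregulin known from fat tissue, was 3.99-fold lower, at 12.6 ± 3.46 CPM in DDC livers and 50.2 ± 5.32 CPM in control livers (adjusted p = 1.80e-05). Erbb4 was 2.86-fold lower, at 1.01 ± 0.491 CPM in DDC livers and 2.91 ± 0.489 CPM in control livers (adjusted p = 0.00534), and was not called with library totals alone (adjusted p = 0.0541). Egf, the founding ligand, was at 0.851 ± 0.118 CPM in DDC livers and 1.02 ± 0.42 CPM in control livers and was not called.

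Of 8 genes that act in ligand shedding, among them the inhibitor gene Timp3, 7 were called higher and 1 lower. Their median log2 fold change was 0.91. With Controls 2 and 4 left out 5 were called higher, where 5453 of 21484 tested genes were. Adam8, a metalloprotease of myeloid cells, was 21.7-fold higher, at 56.8 ± 3.58 CPM in DDC livers and 2.61 ± 0.493 CPM in control livers (edgeR adjusted p = 3.70e-08). All 8 macrophage markers were called higher, and their sum was 866 to 1035 CPM in DDC livers and 169 to 203 CPM in control livers. Adam10 and Adam17 are the main sheddases of ERBB ligands. Adam10 was 2.22-fold higher, at 60.8 ± 2.11 CPM in DDC livers and 27.4 ± 1.53 CPM in control livers, and Adam17 was 1.19-fold higher, at 29.6 ± 0.645 CPM in DDC livers and 24.9 ± 1.83 CPM in control livers. Adam17 was not called with Controls 2 and 4 left out (edgeR adjusted p = 0.0571). Rhbdf1, which helps ADAM17 mature, was 2.26-fold higher, and Timp3, an inhibitor of ADAM17, was 1.88-fold higher. Adam9 was called lower with TMM (log2 fold change -0.36) and higher with library totals alone (0.26).

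Among the genes that act in HGF activation or its inhibition, 8 of 16 were higher, 7 lower and 1 not called. Of all tested genes, 30.2% were called higher and 26.6% lower. Plat and Plau, the genes of the tissue-type and urokinase-type plasminogen activators, were 15.2-fold and 14.5-fold higher: Plat was at 19.6 ± 2.54 CPM in DDC livers and 1.29 ± 0.202 CPM in control livers, and Plau at 13.5 ± 0.424 CPM in DDC livers and 0.924 ± 0.251 CPM in control livers. Plaur, the urokinase receptor gene, was 10.8-fold higher, at 19.9 ± 2.13 CPM in DDC livers and 1.84 ± 1.19 CPM in control livers, and 17.1-fold higher with Controls 2 and 4 left out. Klkb1, the plasma prekallikrein gene, was 2.77-fold lower. Plg, the plasminogen gene, and Hpn, the hepsin gene, both chosen after their values were seen, were 2.76-fold and 1.87-fold lower. The count of 8 higher became 4 with Controls 1 and 3 left out, where 5180 of 21514 tested genes were called higher.

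St14, which encodes the HGF-cutting protease matriptase, and Spint1, which encodes an inhibitor of matriptase and of the HGF activator, were also chosen after their values were seen. St14 was at 21.8, 14.8, 22.6 and 15.1 CPM in DDC livers and at 1.24, 7.80, 0.818 and 1.03 CPM in control livers. Spint1 was at 16.2, 9.91, 16.6 and 11.4 CPM in DDC livers and at 0.99, 7.72, 0.799 and 0.888 CPM in control livers. Both were called higher, St14 6.82-fold (edgeR adjusted p = 0.0159) and Spint1 5.21-fold (adjusted p = 0.0339), and in both Control 2 was above the other controls, as it was for Erbb2. Without Control 2 they were 17.9-fold and 15.1-fold higher. With Controls 1 and 3 left out neither was called (adjusted p = 0.0701 for St14 and 0.138 for Spint1). Spint1 lost its call without any one of the other libraries, with adjusted p between 0.0530 and 0.0828.

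Of the MET partners and the related pair Mst1 and Mst1r, 4 of 8 were higher, 3 lower and 1 not called. With library totals alone 1 was lower, beside 8.96% of all tested genes. Cd44, a co-receptor of MET, was 5.99-fold higher, at 105 ± 15.8 CPM in DDC livers and 17.5 ± 6.96 CPM in control livers (edgeR adjusted p = 4.59e-05). Itgb4, an integrin gene of epithelia, was 5.86-fold higher, at 12.0 ± 2.62 CPM in DDC livers and 2.04 ± 1.72 CPM in control livers. Control 2 held 4.61 CPM of it, and without that library the gene was 10.02-fold higher. Dcn, the proteoglycan decorin that binds EGFR and MET, was 1.86-fold higher. Gab1, the docking protein that carries the MET signal, was 1.96-fold lower, at 16.7 ± 0.264 CPM in DDC livers and 32.7 ± 1.91 CPM in control livers (adjusted p = 1.12e-06).

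Of the adaptors and effectors shared by the receptors, 6 of 22 were higher, 12 lower and 4 not called, with a median log2 fold change of -0.28. Gab2, a docking protein related to Gab1, was 2.68-fold higher, at 17.1 ± 1.02 CPM in DDC livers and 6.37 ± 1.52 CPM in control livers, whereas Sos1, Pik3ca and Akt2 were 1.76-fold to 1.78-fold lower. Pik3ca was not called by limma on log2 FPKM + 0.1 (log2 fold change -0.21, adjusted p = 0.0505). The split turned with the scaling: with library totals alone 15 of the 22 were higher and 3 lower. On that scale 58.9% of all tested genes were called higher and 8.96% lower.

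Among 22 feedback inhibitors 7 were higher, 5 lower and 10 not called. Errfi1, which encodes an inhibitor of the EGFR kinase, was 3.67-fold lower, at 631 ± 43.3 CPM in DDC livers and 2315 ± 327 CPM in control livers (edgeR adjusted p = 6.40e-07). Dusp5, an ERK phosphatase gene, was 3.47-fold higher. Socs5 and Cbl, whose products lead EGFR to degradation, were 2.21-fold and 1.94-fold higher. With library totals alone 15 were higher and 1 lower, beside 58.9% and 8.96% of all tested genes. With Controls 2 and 4 left out 9 were lower, where 5016 of 21484 tested genes were.

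Transcripts known to follow ERK activity gave 6 of 17 higher, 1 lower and 10 not called. Ccnd1, the cyclin D1 gene, was 7.07-fold higher, at 196 ± 14.3 CPM in DDC livers and 27.7 ± 9.99 CPM in control livers, and Ier3 was 4.11-fold higher, or 6.20-fold with Controls 1 and 3 left out. Phlda1 was 5.11-fold lower, at 12.5 ± 1.85 CPM in DDC livers and 63.7 ± 25.6 CPM in control livers. This list depended on the controls: Dusp6, the phosphatase gene induced by ERK itself, was at 68.8 to 85.4 CPM in DDC livers, at 123 and 131 CPM in Controls 1 and 3 and at 41.1 and 33.8 CPM in Controls 2 and 4. Without Controls 1 and 3, 10 of the 17 were called higher, where 5180 of 21514 tested genes were. Without Controls 2 and 4, 7 were called lower, where 5016 of 21484 tested genes were.

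**Figure D5:**
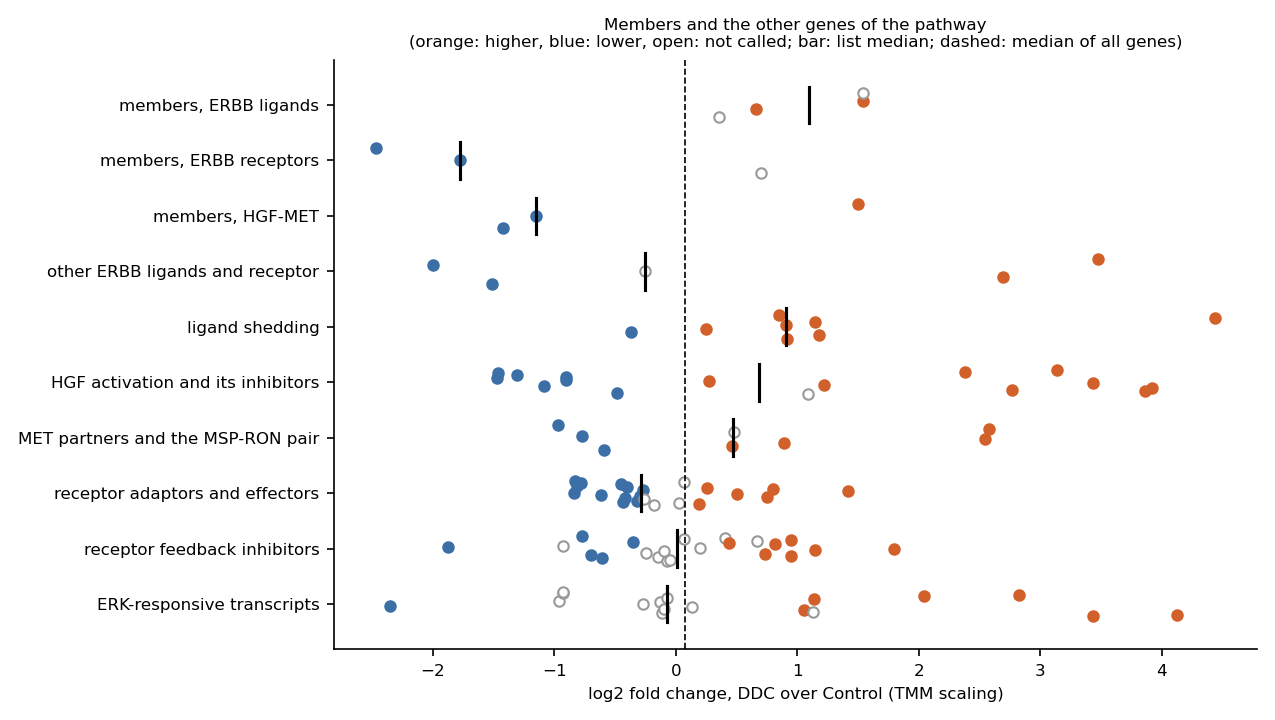
Log2 fold change, DDC over control, of the members and of the tested genes of each pathway list. Orange points were called higher, blue points lower and open points not called, with a bar at each list's median and a dashed line at the median of all tested genes. Outside the members 39 of 94 genes were higher and 31 lower, with a median of 0.07. Of all tested genes, 30.2% were higher and 26.6% lower.

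Taking the 94 tested pathway genes beyond the members once each, 39 were higher, 31 lower and 24 not called. Their median log2 fold change of 0.07 was that of all tested genes, of which 30.2% were called higher and 26.6% lower. With library totals alone 59 were higher and 13 lower, where 58.9% of all tested genes were called higher and 8.96% lower. On that scale 5 of the 10 members were higher, with Ereg (log2 fold change 2.16, adjusted p = 0.0419) and Erbb2 (1.32, adjusted p = 0.0387) added to Hbegf, Tgfa and Hgf, and the same 4 were lower.

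The genes that varied most like 3 of the members within the groups were found by correlating deviations of log2 CPM from the group means over the 8 libraries, among 14824 genes at 1 CPM or more. For Egfr they were Cmtm4, Capn2 and Dct, with Pearson r from 0.981 to 0.986, for Hgf they were Smt3h2-ps4, Smdt1 and Tatdn2, with r from 0.976 to 0.981, and for Areg they were Xpnpep1, Trim65 and Map3k4, with r from 0.977 to 0.991. The points share libraries and depth, and the genes are the closest of many, so these values are descriptions only.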

How the data were processed

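Polyadenylated liver RNA of 8 mice was sequenced as paired reads after dUTP second-strand synthesis, per the labels' protocols. The count table deposited by the authors holds raw whole-number counts per gene. The deposited FPKM values are the authors' counts scaled by gene length and library total. The builds GRCm38 and mm10 and the tools HISAT2, StringTie, cutadapt, FastQC and DESeq2 are named per the submitters' processing notes. Versions, and whether counting used strand, are not given in the sources used here. The labels put all samples in 1 batch and call them biological replicates.

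Counts were fitted with edgeR 4.0.16 in R 4.3.3 (TMM, filterByExpr, robust quasi-likelihood, 8 libraries, no covariate, two-sided, adjusted p under 0.05). The fit was tested on simulated data with 200 changed genes. Those data held no broad shift between the groups, so that test does not bear on the choice of scaling. Depth of 61179103 to 81664057 counts gives intervals for counting error only. Ratios were tested by exact permutation. Overlaps of exons came from GENCODE M21 on GRCm38. The members and the lists of 97 other pathway genes and of cell markers were chosen with earlier results of these data known. Named beyond the members are, per list, up to 4 called genes of largest change at 1 CPM or more and the largest called change in the other direction. Of the genes this rule gives, 1 is not reported here. Other genes named were chosen after their values were seen.

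Alternatives were DESeq2 size factors, library totals alone or without the 20 most abundant genes, other filters on low counts, DESeq2 1.42.0, limma 3.58.1 with voom or on log2 FPKM with pseudocounts of 0.1 and 1, count ratios, a replicate block and the omission of each library in turn. Leaving out Controls 1 and 3, or 2 and 4, was added after seeing the data. Libraries of a group differed by more than sampling noise, measured as chi-square per degree of freedom over the gene counts of 2 libraries. DDC 1 was at 89.7 to 98.9 from the other DDC livers, which were at 15.9 to 22.5 from each other. Controls 1 and 3 were at 13.5 from each other and at 162 to 220 from Controls 2 and 4. Controls 2 and 4 were at 62.7 from each other.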

Additional observations from a re-analysis of the deposited data

Results flagged for a closer look

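Within a group of 4 libraries, 8 of 104 sets of values had 1 library far from the other 3 by Dixon's criterion, which chance gives in about 1 in 20 sets. The lowest DDC liver for Met, DDC 4 at 34.1 CPM, was the one case among DDC livers. The other 7 were all Control 2. It was the highest control for Erbb2 at 9.62 CPM, for Met at 95.8 CPM, for the ratio of Erbb2 to Egfr at 0.0308, for the summed cholangiocyte markers at 218 CPM, for Plaur at 3.61 CPM, for Cd44 at 27.9 CPM and for Itgb4 at 4.61 CPM. Whether these genes share a source in that liver was not tested.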

How the results depend on the processing

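The 7 called members kept their direction and their call in all 20 alternatives each. Counts over all genes, members and all pathway genes moved by more than 1.5 times under library totals alone, totals without the 20 most abundant genes, limma on log2 FPKM + 0.1 and limma on log2 FPKM + 1, in that order: 11505, 11052, 11976 and 11987 genes higher in DDC livers, 1750, 1891, 1826 and 1815 genes lower, 5, 5, 5 and 6 members higher, 59, 59, 59 and 59 pathway genes higher, and 13, 15, 13 and 14 pathway genes lower. These 4 share a scale on which the median of all genes lies above that with TMM. Adam9 reversed on all 4, to 0.26, 0.21, 0.25 and 0.24. Leaving out Controls 2 and 4 gave 5 members higher, 7 ERK-responsive transcripts lower against 1, and 9 feedback inhibitors lower against 5. It also reversed Areg to -0.076. In that fit 5453 of 21484 tested genes were called higher and 5016 lower. Leaving out Controls 1 and 3 gave 4 genes of HGF activation higher against 8 and 10 ERK-responsive transcripts higher against 6. In that fit 5180 of 21514 tested genes were called higher. Without Control 4, 2 ERK-responsive transcripts were lower against 1, where 5034 of 20511 tested genes were called lower. Leaving out each library in turn gave 9632 to 11760 genes called, 7 to 8 members and 65 to 73 pathway genes. The log2 difference of the ratio Erbb3 to Egfr ran from 0.54 to 0.76 over those omissions, with p = 0.0571 without Control 2 (0.59) or without Control 4 (0.65) by exact permutation. Areg was called by limma on log2 FPKM + 1 (0.30, adjusted p = 0.0460) and by no other of its 19 alternatives. The 29 other genes that the rule gives made 580 comparisons, of which 574 kept direction and call, 2 lost the call and 4 reversed.

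Replicate numbers did not pair the samples: deviations of same-numbered libraries from their group means correlated at -0.22, -0.18, 0.03 and -0.05, and no library correlated best with its own number. A replicate block gave 4810 genes higher and 4654 lower. A sign-flip permutation over the 4 numbers (replicate block), whose smallest p is 0.125, gave p = 0.125 for the ratios, with log2 differences of 3.46 for Erbb2 to Egfr, 0.67 for Erbb3 to Egfr, 1.32 for Met to Egfr and 2.66 for Hgf to Met. Areg had 6 to 69 counts in a library, which limits its precision.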
